A study of Mus musculus with 18 samples.

Results

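The prefrontal cortex (PFC) of colonized germ-free (CGF) mice was compared with that of specific pathogen-free (SPF) mice by single-nucleus RNA-seq. The comparison used 6 of the 18 libraries of the series, 1 library per mouse, with 3 CGF mice (numbered 17, 18 and 19) and 3 SPF mice (30, 31 and 32). Libraries were chosen by their region and strain labels, and 42035 nuclei passed the limits of at least 200 detected genes and at most 10% mitochondrial UMIs (unique molecular identifiers, each standing for 1 captured transcript). All were Kun Ming mice, an outbred stock, aged 8 weeks. CGF mice began life germ-free (GF) and were later co-housed with SPF mice inside a gnotobiotic isolator, and SPF mice were raised under other conditions. Colonization history, housing and inherited differences between the groups of this outbred stock therefore cannot be told apart. The GF libraries of PFC and the hippocampal (Hip) libraries of the same 6 mice stood outside this comparison. Hip was used for its own CGF-SPF test and for a test of the difference between regions, and GF for levels and for 1 alternative fit.

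Germ-free animals carry no microbes, and colonizing them later in life gives animals with a normal flora but a germ-free early life. The PFC is a cortical region for planning, working memory and the control of emotion. Its excitatory neurons release glutamate and its inhibitory neurons release GABA. Astrocytes take up transmitter and supply metabolites, oligodendrocytes make myelin, their precursors (OPC) keep dividing in the adult, and microglia are the resident immune cells. In nuclei, most RNA is unspliced or newly made, so a level reflects the nuclear pool of a transcript. A level from summed nuclei cannot separate fewer cells of a type from less RNA per cell.

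The 6 libraries kept 5710 to 7560 nuclei and 20070604 to 26168411 UMIs each. The median UMI count per nucleus was 2730 ± 347 in CGF and 3147 ± 95.5 in SPF (SD, n = 3 each; exact two-sided permutation p = 0.1, adjusted p = 0.2), and 0.1 is the smallest p that 3 against 3 can give. The groups did not overlap in this median (2353 to 3035.5 against 3037 to 3208). Nor did they in median genes per nucleus (1464 to 1680 against 1764.5 to 1811) or genes detected per library (22638 to 22777 against 22437 to 22564). Mitochondrial UMIs made up 1.21% to 2.86% of a library, with overlapping groups. Any pair of libraries shared 7 to 16 barcodes. The Y-linked genes Ddx3y, Eif2s3y, Kdm5d and Uty were found in all 6 libraries (Ddx3y at 28.0 to 33.0 CPM, the counts in each 1000000 UMIs of a library) and Xist did not pass the filter on low counts, and none of the 4 Y-linked genes differed at the threshold. UMIs were summed per library over all nuclei and over 6 populations gated by marker UMIs: 14079 excitatory neurons, 2478 inhibitory neurons, 4057 astrocytes, 1256 oligodendrocytes, 1195 OPC and 634 microglia, with 18336 nuclei in none of these. Markers that the gates did not use followed the gates in part. The GABA transporter gene Slc32a1 was at 34.3 to 39.7 CPM in inhibitory neurons and at 1.67 to 4.67 CPM in excitatory neurons, and the complement gene C1qa was at 72.1 to 157 CPM in microglia and at 5.33 to 11.7 CPM in excitatory neurons. Nrgn, a calmodulin-binding protein of excitatory synapses, was at 418 to 783 CPM in excitatory neurons and at 425 to 846 CPM in microglia, so that neuronal RNA was present in the glial gates.

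In all nuclei, 39 of 17219 tested genes (0.226%) passed an adjusted p of 0.05, with 21 (0.122%) higher and 18 (0.105%) lower in CGF. Many of them were rare transcripts or unnamed models: 24 had a mean under 20 CPM in both groups and 15 carried no gene name. Groups did not overlap for 16.7% of all tested genes, and 11.1% had an unadjusted p under 0.05. The count depended on single libraries. It was 9 without CGF mouse 17, 158 without CGF mouse 18, 25 without CGF mouse 19, 12 without SPF mouse 30 and 22 without SPF mouse 31, and 28 without SPF mouse 32.

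Of the genes called in all nuclei, Sim2 had the largest fitted difference. The unnamed model Gm6356, picked after its values were seen, had 59, 44 and 63 UMIs in CGF and 0 in each SPF library, so that its fold has only a lower bound and cannot be ranked against that of Sim2. Sim2 encodes a basic helix-loop-helix PAS transcription factor related to the fly midline regulator single-minded, and it lies at chr16:94084931-94127032 on the plus strand (mm10), in the mouse segment that matches the human Down syndrome region. In CGF mice 17, 18 and 19, it was measured at 112, 144 and 220 CPM. The SPF mice 30, 31 and 32 had 0.0486, 0.120 and 0.121 CPM. These rest on 11627 UMIs in the CGF mice and 7 UMIs in the SPF mice, which makes the pooled share of UMIs 1615-fold higher in CGF (95% counting interval 783 to 4017, which covers counting error only). Where in the gene these reads lie was not analysed here. The fitted log2 fold change was 10.57 ± 0.40 (SE; adjusted p = 6.82e-06). The call held without each of the 6 libraries, with adjusted p from 5.59e-07 to 0.000238.

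**Figure D1:**
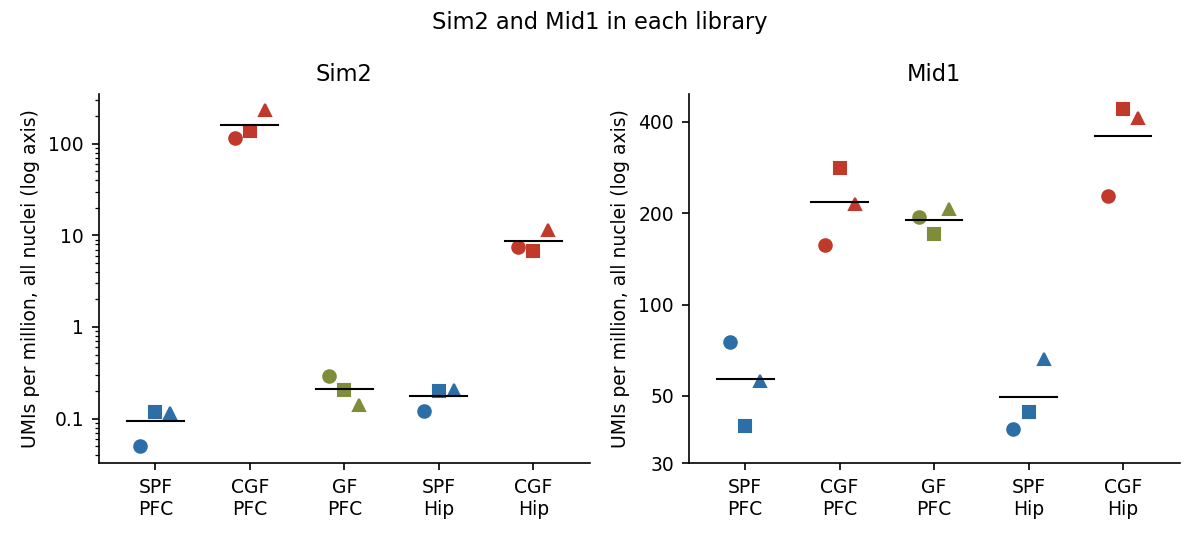
Level of Sim2 (left) and Mid1 (right) as UMIs in each 1000000 over all nuclei of each library, on log axes, with 1 point per mouse and a bar at the group mean. Circle, square and triangle stand for mice 17, 18 and 19 (CGF), 30, 31 and 32 (SPF) and 5, 6 and 7 (GF). Sim2 is high in the CGF libraries of PFC, lower in those of Hip and near 0 in all others, and Mid1 is higher in CGF than in SPF in both regions and alike in GF and CGF of PFC.

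Sim2 was high in every gated population of the CGF mice. In excitatory neurons, 5183 UMIs stood against 5 in SPF, a 1139-fold higher share of UMIs (95% counting interval 488 to 3510). In inhibitory neurons there were 644 UMIs against 0 and in astrocytes 664 against 0, which is at least 181-fold and at least 212-fold higher against a floor of 3 counts over the SPF group. Oligodendrocytes had 94 UMIs against 0 (at least 36.8-fold higher) and microglia 72 against 0 (at least 19.6-fold higher). OPC had 212 UMIs against 1, a ratio of 155 (95% counting interval 27.5 to 6137). Sim2 passed the threshold in all 7 sums (all nuclei and the 6 gates), and it was the 1 gene that did so. No other of the 52 genes called in at least 1 sum was called in all of them, and 26 were called in 1 sum only.

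Its level was alike between gates and followed the mouse. In each 1000000 UMIs of a gate, Sim2 in CGF mouse 17 ranged from 81.0 in oligodendrocytes to 118 in excitatory neurons. CGF mouse 18 ranged from 87.3 in oligodendrocytes to 144 in microglia, and CGF mouse 19 from 180 in oligodendrocytes to 229 in OPC. Mouse 19 was the highest of the 3 in each of the 6 gates. The share of nuclei with a Sim2 UMI ordered with depth: in mouse 19 it was 54.1% in excitatory neurons (median 3635 UMIs per nucleus) and 18.8% in microglia (median 842 UMIs). Within the libraries the same held, since from the shallowest to the deepest of 4 equal sets of nuclei the share went from 7.92% to 52.8% in mouse 17, from 9.10% to 57.3% in mouse 18 and from 18.3% to 65.8% in mouse 19. A nucleus held at most 9 Sim2 UMIs, and 42.1% of the nuclei of mouse 19 held at least 1. In the SPF libraries the share over all nuclei was 0.0175% to 0.0436%, at a median of 3037 to 3208 UMIs. The part of RNA from outside the nucleus in the gate values was not tested.

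**Figure D2:**
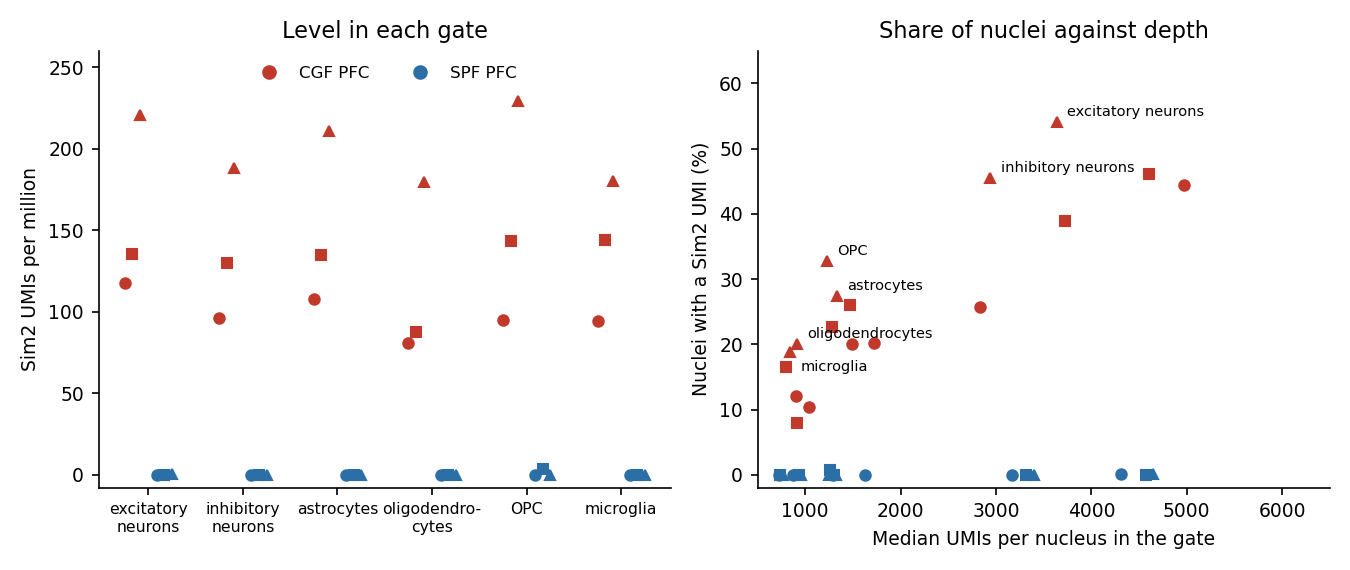
Left, Sim2 UMIs in each 1000000 UMIs of each gate, with red points for the 3 CGF and blue points for the 3 SPF libraries of PFC. Right, percent of nuclei with a Sim2 UMI against the median UMIs per nucleus of the gate, 1 point per library and gate (gate names beside the points of CGF mouse 19). The level differs more between mice than between gates, and in CGF the share is higher in the deeper gates. Circle, square and triangle stand for mice 17, 18 and 19 (CGF) and 30, 31 and 32 (SPF).

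No neighbour of Sim2 passed the threshold. Of 14 other genes tested within 1 Mb, edgeR called 0, beside 0.226% of all tested genes. At that share, 0 of 14 is no result about these neighbours. An unadjusted p under 0.05 was found for 3 of the 14, and for 11.1% of all tested genes. Hlcs, the next tested gene downstream, lies on the other strand and encodes the enzyme that attaches biotin to carboxylases, with a log2 fold change of 0.06 ± 0.09. Ttc3, a ubiquitin ligase gene, had 0.03 ± 0.12, and Dyrk1a, a kinase gene of the Down syndrome region, -0.11 ± 0.10. On the other side, Cldn14, a tight junction claudin, was at 1.04, 0.735 and 0.737 CPM in CGF and 1.85, 1.55 and 1.73 CPM in SPF (log2 fold change -1.02 ± 0.26, adjusted p = 0.242).

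In Hip of the same mice, Sim2 was also higher in CGF, though less so. It was at 7.74, 6.92 and 11.3 CPM in CGF and at 0.123, 0.197 and 0.199 CPM in SPF (log2 fold change 5.62 ± 0.29, adjusted p = 0.00156). The difference between regions was itself tested in the 12 libraries with the mouse as a block, and the CGF-SPF difference was larger in PFC by 4.96 ± 0.44 on the log2 scale (adjusted p = 0.00292). In excitatory neurons the same term was 4.12 ± 0.62 (adjusted p = 0.0683). The GF libraries of PFC had 0.295, 0.218 and 0.145 CPM, so that Sim2 was not high in germ-free mice either.

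Mid1, a microtubule-associated ubiquitin ligase mutated in Opitz syndrome, had the largest rise in all nuclei among the other genes named by rule. It lies at chrX:169685199-170005736 on the plus strand, and in common laboratory mice the gene spans the pseudoautosomal boundary. CGF mice 17, 18 and 19 had 151, 298 and 204 CPM, and SPF mice 30, 31 and 32 had 73.1, 40.4 and 59.1 CPM. The log2 fold change was 1.92 ± 0.27 (adjusted p = 0.0324). It also rose in excitatory neurons (1.98 ± 0.27, adjusted p = 0.0236), inhibitory neurons (1.95 ± 0.28, adjusted p = 0.0123), astrocytes (1.55 ± 0.19, adjusted p = 0.00244) and OPC (1.69 ± 0.30, adjusted p = 0.0233). In oligodendrocytes 108 UMIs stood against 42 and in microglia 98 against 27, and these did not pass. In all nuclei the call was lost without CGF mouse 19 or any of the 3 SPF mice (adjusted p up to 0.0800). In astrocytes the call held without each library and was lost with stricter gates. In OPC it was lost without 5 of the 6 libraries (up to 0.155), in excitatory neurons without 3 (up to 0.0654) and in inhibitory neurons without 2 (up to 0.135). In Hip, Mid1 was at 234, 456 and 402 CPM in CGF and at 39.2, 44.0 and 63.7 CPM in SPF (log2 fold change 2.89 ± 0.29, adjusted p = 0.0175). The difference between regions was -0.98 ± 0.24 (adjusted p = 0.658), and it did not pass. The GF libraries of PFC had 198, 181 and 213 CPM, within the range of the CGF libraries.

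Psat1, the aminotransferase of serine synthesis, had 20.1, 20.7 and 22.0 CPM in CGF and 8.26, 8.64 and 8.69 CPM in SPF. The spread within each group was small beside the gap, and the log2 fold change was 1.29 ± 0.11 (adjusted p = 0.00365). In excitatory neurons Psat1 had 21.8, 21.1 and 22.6 CPM against 6.46, 6.86 and 6.57 CPM (1.71 ± 0.13, adjusted p = 0.000958). Both calls held without each of the 6 libraries. Galnt10, which starts O-linked glycosylation in the Golgi, was at 29.2, 23.4 and 21.4 CPM against 12.5, 10.3 and 11.7 CPM (1.10 ± 0.14, adjusted p = 0.0276). In excitatory neurons its difference was 1.81 ± 0.18 (adjusted p = 0.00417), a call that held without each library and in 8 of the 9 other alternatives.

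Emc10, a subunit of the complex that inserts membrane proteins in the endoplasmic reticulum, was at 47.1, 50.6 and 47.4 CPM in CGF and 19, 25.3 and 29.2 CPM in SPF (0.98 ± 0.15, adjusted p = 0.0389). Gmip, a GTPase-activating protein, was at 36.6, 31.2 and 39.3 CPM against 12.5, 18.3 and 16.5 CPM (1.18 ± 0.15, adjusted p = 0.0276). Cox7c, a subunit of cytochrome c oxidase, was at 21.8, 17.5 and 20.7 CPM against 11.5, 9.28 and 11.7 CPM (0.88 ± 0.14, adjusted p = 0.0490). That the groups did not overlap was a condition for naming these genes, and the calls were close to the threshold. Metap1d, the mitochondrial enzyme that removes the first methionine, rose by 0.78 ± 0.09 (53.0 ± 1.11 against 30.9 ± 1.67 CPM, SD, n = 3 each; adjusted p = 0.0157). Mfap3, a microfibril-associated protein, rose by 0.73 ± 0.11 (25.1 ± 2.54 against 15.2 ± 0.758 CPM; adjusted p = 0.0488).

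Of the genes with a name and at least 20 CPM in the higher group, 4 fell in CGF. Tmem59l, a brain-enriched membrane protein of the secretory pathway, was at 40.5, 53.6 and 57.7 CPM in CGF and at 91.5, 99.3 and 97.9 CPM in SPF (log2 fold change -0.93 ± 0.13, adjusted p = 0.0324). It also fell in excitatory neurons (-0.91 ± 0.14, adjusted p = 0.0486) and inhibitory neurons (-1.08 ± 0.18, adjusted p = 0.0361; up to 0.219 and lost without 5 of the 6 libraries). Nrsn2, a neuronal vesicle membrane protein, was at 11.1, 12.8 and 12.8 CPM against 21, 21.4 and 24.2 CPM (-0.86 ± 0.12, adjusted p = 0.0324), and fell in excitatory neurons too (-0.91 ± 0.13, adjusted p = 0.0290). Ly6e, a lipid-anchored surface protein that interferon induces, was at 37.0, 47.6 and 38.2 CPM against 69.3, 71.8 and 76.3 CPM (-0.83 ± 0.12, adjusted p = 0.0324). Pmepa1, a target and brake of TGF-beta signalling, was at 72.0, 67.7 and 77.6 CPM against 110, 107 and 104 CPM (-0.57 ± 0.09, adjusted p = 0.0488).

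Of the 13 genes named in all nuclei, Sim2 and Psat1 kept the call without each library, and each of the others lost it without at least 1. Leaving out CGF mouse 17 ended 10 of the 13 calls, CGF mouse 19 ended 8, SPF mouse 30 ended 11, and SPF mice 31 and 32 ended 10 each, while leaving out CGF mouse 18 ended 0. The highest adjusted p was 0.234, for Cox7c, and no direction changed. The other rare or low genes were chosen for mention after their values were seen. Vill, a villin-like actin-binding protein, was at 0.594, 0.654 and 0.867 CPM in CGF and 7.72, 5.98 and 3.66 CPM in SPF (-3.03 ± 0.33, adjusted p = 0.00949; 0.0591 without CGF mouse 17). Oscar, a collagen receptor first known from osteoclasts, was at 0.223, 0.327 and 0.0867 CPM against 2.53, 2.83 and 4.55 CPM (-3.92 ± 0.42, adjusted p = 0.00949; 0.0591 without CGF mouse 17). Lmntd1, a lamin tail domain gene, was at 18.3, 11.4 and 11.3 CPM against 3.35, 3.27 and 2.41 CPM (2.18 ± 0.24, adjusted p = 0.00949), and the call held without each library.

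**Figure D3:**
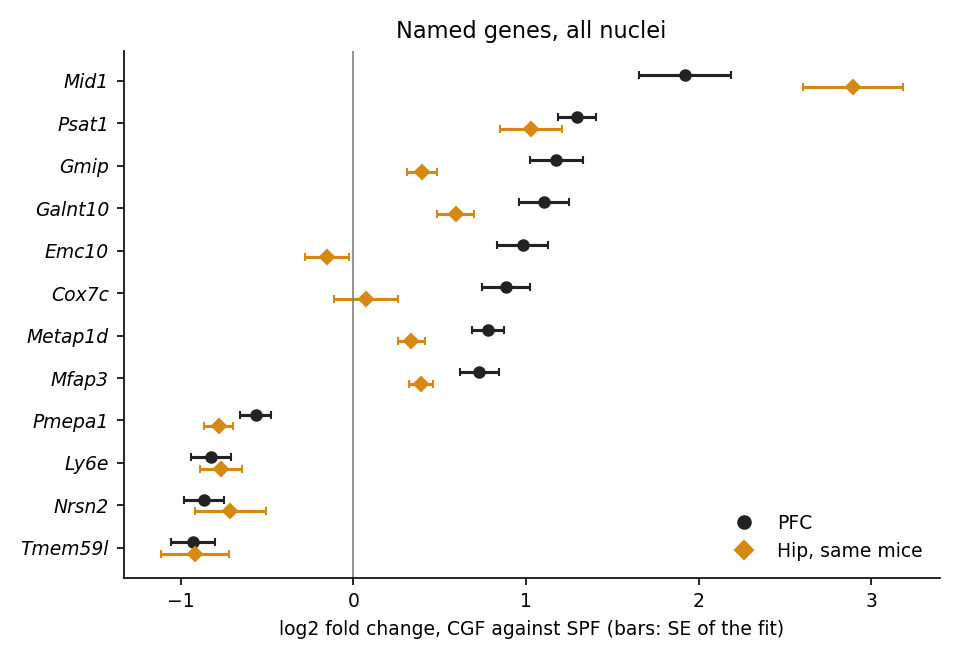
Log2 fold change of CGF against SPF in all nuclei for 12 of the 13 genes named in PFC (Sim2, at 10.57 in PFC and 5.62 in Hip, is left out of the scale), with black circles for PFC, orange diamonds for Hip of the same 6 mice, and bars for the SE of the fit. Mid1 and the 4 lower genes lie on the same side in both regions, and Emc10 and Cox7c lie near 0 in Hip.

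Hip gave a second sample of the same mice, so it does not replicate the comparison over other animals. The Hip libraries were deeper, with 54476527 to 63063847 UMIs. Their median was 5460 to 7579 UMIs per nucleus, against 2353 to 3208 in PFC. Mitochondrial UMIs made up 0.0686% to 0.429% of a library in Hip and 1.21% to 2.86% in PFC. The part of depth or of the mitochondrial share in the differences between regions was not tested. Of the 39 genes called in PFC, 38 were tested in Hip and 13 were called there too, beside 40 of 19374 genes (0.206%) called in Hip overall. The log2 fold change had the same sign in both regions for 36 of the 38, the 13 among them. The share of all tested genes with the same sign is not given here. In the neuron gates of Hip, 31 of 17235 (0.18%) were called in excitatory and 12 of 14212 (0.0844%) in inhibitory neurons. Pmepa1 had a log2 fold change of -0.78 ± 0.08 in Hip (adjusted p = 0.0210). Psat1 had 12.8, 15.5 and 11.5 CPM in CGF and 5.87, 5.54 and 8.11 CPM in SPF in Hip, a difference of 1.03 ± 0.18 that did not pass (adjusted p = 0.0969). Emc10 had -0.15 ± 0.13 in Hip, at 42.6, 47.7 and 53.3 CPM against 49.1, 47.4 and 63.0 CPM. The difference of its change between regions was 1.12 ± 0.14 in all nuclei (adjusted p = 0.0519) and passed in excitatory neurons (1.19 ± 0.15, adjusted p = 0.0215). In all nuclei, 3 of 19651 genes (0.0153%) differed between regions in their CGF-SPF difference, and in excitatory neurons 6 of 17458 (0.0344%). In inhibitory neurons edgeR called 0 of 14025 (0.0%), with 470 at an unadjusted p under 0.05, and 0 without the mouse block.

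The GF libraries of PFC held 58877661 to 71320063 UMIs, more than the other PFC libraries, so their values stand beside the comparison only as levels. Their median UMIs per nucleus (6795.5 to 7426.5) were also higher, and their mitochondrial share (0.304% to 0.556%) was lower. Psat1 was at 26.6, 28.6 and 26.6 CPM in GF, above all 6 other libraries, and Emc10 was at 92.5, 85.8 and 87.1 CPM. Cox7c was at 47.0, 41.7 and 40.1 CPM and Mfap3 at 48.0, 43.6 and 40.0 CPM, again above both groups. Tmem59l was at 39.8, 49.5 and 40.1 CPM, near CGF, and Pmepa1 at 62.2, 69.3 and 68.6 CPM, also near CGF. Ly6e was at 60.6, 58.0 and 65.8 CPM, between CGF and SPF. Other rising genes were nearer SPF in GF, with Gmip at 17.7, 17.8 and 19.7 CPM and Metap1d at 36.0, 35.4 and 31 CPM, and Galnt10 was at 20.2, 9.39 and 17.4 CPM.

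In excitatory neurons, 24 of 15173 genes (0.158%) passed, 16 higher (0.105%) and 8 lower (0.0527%), and 21 of the 24 were also called in all nuclei. An unadjusted p under 0.05 was found for 10.2% of the genes, and the groups did not overlap for 15.7%. Beyond the genes given above, Fbxl7, an F-box adaptor of a ubiquitin ligase, rose by 1.35 ± 0.17 (57.7, 63.4 and 41.0 against 22.2, 18.5 and 22.9 CPM, adjusted p = 0.0158). Kbtbd11, a Kelch and BTB domain adaptor, rose by 1.08 ± 0.16 (34.2, 29.1 and 30.4 against 12.2, 13.5 and 18.5 CPM, adjusted p = 0.0389). Gmip rose by 1.28 ± 0.17 (adjusted p = 0.0236). Iqgap2, a scaffold of the actin cytoskeleton that was picked after its values were seen, rose by 0.74 ± 0.10 and was at 170, 176 and 172 CPM against 98.0, 97.7 and 115 CPM (adjusted p = 0.0236; up to 0.141, with the call lost without CGF mouse 17, SPF mouse 30 or SPF mouse 31). Of the 8 genes named by rule here, Sim2 and Psat1 kept the call without each library, and leaving out CGF mouse 17, SPF mouse 30 or SPF mouse 31 ended 5 calls each.

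In inhibitory neurons, 13 of 10555 genes (0.123%) passed, with 7 (0.0663%) higher and 6 (0.0568%) lower. An unadjusted p under 0.05 was found for 7.39% of the genes, and no overlap between groups for 12.4%. Thsd4, a secreted protein that binds fibrillin microfibrils, was at 62.8, 55.0 and 62.3 CPM in CGF and 21.4, 10.9 and 11.7 CPM in SPF (2.02 ± 0.24, adjusted p = 0.00240). Its call held without each library. Lmntd1 was at 50.9, 11.4 and 15.0 CPM against 2.14, 0.779 and 0 CPM (4.69 ± 0.81, adjusted p = 0.0441), so that CGF mouse 17 stood far above the others, and without that mouse, CGF mouse 19 or any SPF mouse the call was lost. Arf5, a small GTPase of Golgi traffic, was at 33.3, 54.4 and 34.9 CPM against 124, 83.4 and 169 CPM (-1.62 ± 0.25, adjusted p = 0.0255; up to 0.164 without 1 library, with the call lost without CGF mouse 17 or 19 or SPF mouse 30 or 32). Gmip rose by 1.34 ± 0.22 (adjusted p = 0.0361) and Fbxl7 by 1.28 ± 0.22 (adjusted p = 0.0441). Gmip lost the call without 5 of the 6 libraries (adjusted p up to 0.219) and Fbxl7 without any 1 of the 6 libraries (adjusted p from 0.0644 to 0.222). AY036118, a transcript that overlaps the ribosomal RNA repeat, rose by 0.97 ± 0.17 (436, 479 and 357 against 210, 177 and 264 CPM, adjusted p = 0.0441), and it too lost the call without any 1 library (0.0611 to 0.302). Of the 8 genes named by rule in this gate, Sim2 and Thsd4 kept the call without each library.

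In astrocytes, 3 of 11253 genes (0.0267%) passed, 2 higher (0.0178%) and 1 lower (0.00889%). These were Sim2 and Mid1, which rose, and the unnamed model Gm45844, named here after its values were seen, which fell by 1.43 on the log2 scale (SE 0.19, adjusted p = 0.00512). Groups did not overlap for 15.5% of the genes, and 10.4% had an unadjusted p under 0.05. In oligodendrocytes, 6 of 5065 (0.118%) passed, 4 higher (0.079%) and 2 lower (0.0395%), beside 10.1% without overlap and 5.39% at an unadjusted p under 0.05. Fam13c, a gene of little known function, was at 120, 103 and 102 CPM in CGF and 389, 417 and 220 CPM in SPF (-1.62 ± 0.27, adjusted p = 0.00477; 0.0548 without SPF mouse 30). Stk19, a DNA-repair protein, was at 87.7, 124 and 187 CPM against 24.9, 46.3 and 25.2 CPM (2.09 ± 0.36, adjusted p = 0.00618; the call was lost without CGF mouse 19 or SPF mouse 30). Fcho1, an endocytosis adaptor, was at 314, 245 and 245 CPM against 54.8, 171 and 59.6 CPM (1.55 ± 0.32, adjusted p = 0.0427; up to 0.358 without 1 library). Fcho1 kept the call only without SPF mouse 31. In OPC, 4 of 6971 (0.0574%) passed, with Sim2 and Mid1 higher (0.0287%) and Ppp6r1 and the model Gm45844 lower (0.0287%), beside 12.2% without overlap and 6.99% at an unadjusted p under 0.05. Ppp6r1, a regulatory subunit of protein phosphatase 6, was at 69.6, 78.5 and 69.7 CPM against 299, 79.9 and 385 CPM (-1.86 ± 0.33, adjusted p = 0.0233), where SPF mouse 31 lay beside the CGF mice. With 1 library left out the call held only without SPF mouse 31 (adjusted p up to 0.429), and it was also lost with libraries thinned to equal totals and with DESeq2 (adjusted p = 0.9999).

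In microglia, 3 of 3596 genes (0.0834%) passed: Sim2, which rose (0.0278%), and Ppp6r1 and Thy1, which fell (0.0556%). Groups did not overlap for 12.0% of the genes, and 6.48% had an unadjusted p under 0.05. Ppp6r1 was at 124, 138 and 71.3 CPM in CGF and 585, 139 and 857 CPM in SPF (-2.22 ± 0.40, adjusted p = 0.00981). Again SPF mouse 31 was level with CGF, and the call was lost without CGF mouse 17 or 18 or SPF mouse 32 (adjusted p up to 0.417). DESeq2 did not call it (adjusted p = 0.996). Thy1, a surface glycoprotein of neurons and T cells and not a gene of microglia, was at 169, 130 and 187 CPM against 382, 367 and 387 CPM (-1.22 ± 0.24, adjusted p = 0.0337; up to 0.237 without 1 library). Thy1 lost the call without CGF mouse 17 or 18 or any SPF mouse, and DESeq2 did not call it either. The microglia gate held 71 to 149 nuclei per library at a median of 723 to 904 UMIs, and the neuronal transcript share of these nuclei was not tested.

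Several called genes lay close together on a chromosome. Of the 39, 11 (28.2%) had another called gene within 1 Mb, while 717 of 17193 tested genes with a position (4.17%) had a called gene within that distance. The densest stretch was chr8:69427980-71126576, 1699 kb with 62 tested genes. Of these, 6 were called: Gmip was higher, and Gm9495, Zfp963, Tmem59l, Slc5a5 and Gm35256 were lower in CGF. Zfp963, a zinc-finger gene that overlaps Gm20422 on the same strand so that their reads may be shared, was at 0.446, 0.327 and 0.390 CPM in CGF against 2.67, 1.43 and 2.86 CPM in SPF (-2.56 ± 0.35, adjusted p = 0.0324). Slc5a5, the sodium-iodide symporter, was at 0.929, 0.613 and 0.954 CPM against 3.55, 2.43 and 3.26 CPM (-1.88 ± 0.27, adjusted p = 0.0354). The stretch was chosen for its calls and ends at called genes, so its counts carry no test. Over all 62 genes, 16 had an unadjusted p under 0.05, the 6 called genes among them, and the median log2 fold change was -0.03. Leaving out 1 library ended the call of Slc5a5 in 5 of 6 cases (adjusted p up to 0.132) and that of Zfp963 in 4 (up to 0.123). Mfap3, Galnt10 and the olfactory receptor gene Olfr318 lay together on chromosome 11, the first 2 higher and the last lower (Olfr318 at 0.149, 0 and 0 CPM against 1.21, 1.23 and 0.885 CPM, adjusted p = 0.0490, and up to 0.129 without 1 library, with the call lost in 5 of 6 cases). The genotypes of the mice were not analysed here, and whether shared haplotypes of a family carry such groups was not tested.

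**Figure D4:**
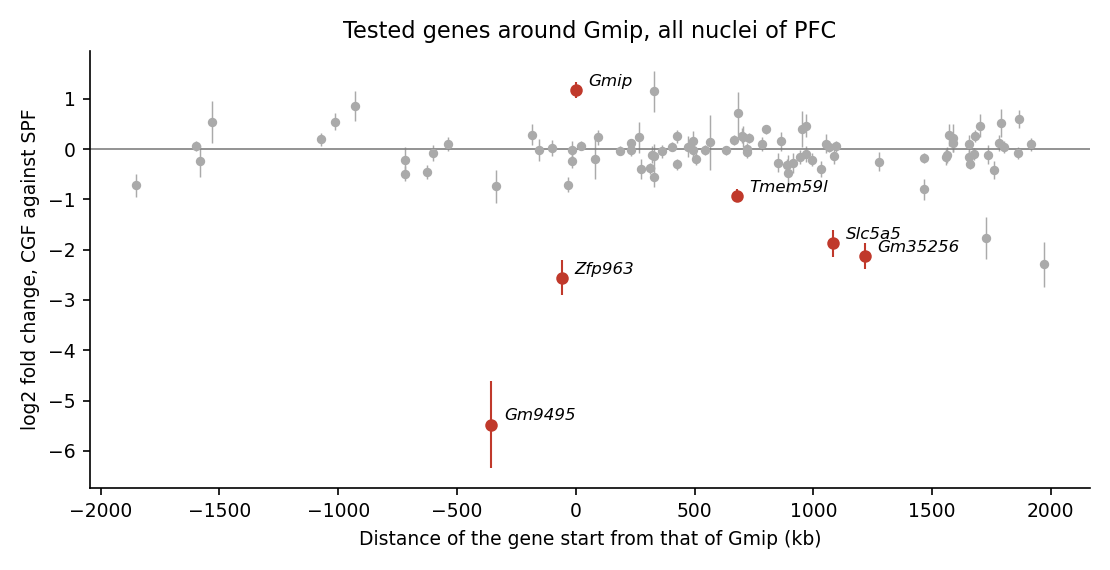
Log2 fold change of CGF against SPF in all nuclei of PFC for the tested genes around Gmip, by the distance of each gene's start from that of Gmip in kb. Red points are the 6 genes past the threshold, grey points the others, and bars are the SE. Called genes with large falls stand among neighbours most of which lie close to 0.

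In the RefSeq promoter table (build GRCm38.p6), 10 of the 13 genes named in all nuclei had an entry, and Sim2, Ly6e and Pmepa1 did not. The letters ACGTG, the core bound by Sim proteins with their partner Arnt, were searched on both strands in the 250 bases before each start. They were found in 2 of the 10 genes (Galnt10 and Emc10), and in 2933 of 12438 tested genes (23.6%). This match is a description of letters and carries no test.

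The pathway and cell type lists held few calls, as did all tested genes (0.226% in all nuclei, 0.123% in inhibitory neurons). At such shares, a list with 0 calls is no result about its members. Of 38 lists, 1 held a called member in all nuclei, Cox7c of the 85 nuclear genes of oxidative phosphorylation, and 1 in inhibitory neurons, AY036118. In all nuclei, 68 of the 80 tested oxidative phosphorylation genes were higher in CGF, 13 at an unadjusted p under 0.05 (11.1% of all tested genes had one), with a median log2 fold change of 0.16 beside 0.004 over all tested genes. Of 81 ribosomal protein genes, 66 were higher, 12 at an unadjusted p under 0.05, and their median was 0.19. Of the 13 genes of the mitochondrial genome 0 had an unadjusted p under 0.05, with 12 values below 0 and a median of -0.34, and the mitochondrial share of UMIs overlapped between groups (exact permutation p = 0.5). DESeq2, which called 202 of 17219 genes, also called 1 oxidative phosphorylation gene, and 0 genes of the other 2 lists.

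Of 24 cholesterol synthesis genes, 23 were lower (8 at an unadjusted p under 0.05), with a median of -0.27, and summed levels of 455 to 618 CPM in CGF and 619 to 661 CPM in SPF. Srebf2, the factor that drives the pathway, was at 54.3, 56.4 and 52.4 CPM against 67.2, 68.5 and 67.1 CPM (-0.31 ± 0.08, adjusted p = 0.253). Of 24 immediate early genes of neuronal activity, 19 were lower (6 at an unadjusted p under 0.05), with a median of -0.21. Arc, a synaptic regulator, had -0.57 ± 0.16 (adjusted p = 0.272) and Bdnf, a growth factor, -0.37 ± 0.14 (adjusted p = 0.378). Of 17 circadian clock genes 13 were lower (median -0.15; 3 at an unadjusted p under 0.05), with the smallest p for Tef at -0.38 ± 0.12 (adjusted p = 0.307). Of 15 glucocorticoid target genes 12 were lower (median -0.13; 2 at an unadjusted p under 0.05). edgeR and DESeq2 both called 0 genes in these 4 lists, beside 39 and 202 of all 17219 tested genes. At such shares 0 calls is no result about the lists. An unadjusted p under 0.05 was found for 11.1% of all tested genes.

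In the lists of immune genes edgeR called 0 members, beside 0.226% of all tested genes. Of 15 tested genes of MHC class I and antigen processing, 11 were lower, 5 of them at an unadjusted p under 0.05, and the median was -0.64. H2-Q6 was at 0.186, 0.123 and 0.130 CPM in CGF and 1.36, 2.23 and 0.724 CPM in SPF (-3.24 ± 0.52, adjusted p = 0.0511), and H2-K1 at 2.19, 1.14 and 1.91 CPM against 5.59, 8.80 and 3.22 CPM (-1.74 ± 0.38, adjusted p = 0.159). H2-T22 was higher, at 0.65 ± 0.17 (adjusted p = 0.239). DESeq2 called 4 MHC genes lower, beside 98 lower among all 17219 genes, where edgeR called 0. MHC genes are variable between mice and near copies of each other, so their reads can be split or lost between genes. Of 29 interferon-response genes 16 were lower (median -0.08; 3 at an unadjusted p under 0.05), with the smallest p for Bst2, an antiviral tether (-1.77 ± 0.42, adjusted p = 0.203). Of 9 genes of microbial sensing 7 were lower, and Tlr3, a receptor of double-stranded RNA, had -1.53 ± 0.39 (adjusted p = 0.235). edgeR and DESeq2 called 0 of the 29 listed interferon-response genes, a list without Ly6e, which was called lower in all nuclei. DESeq2 called 1 sensing gene, beside its 202 of 17219 genes.

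**Figure D5:**
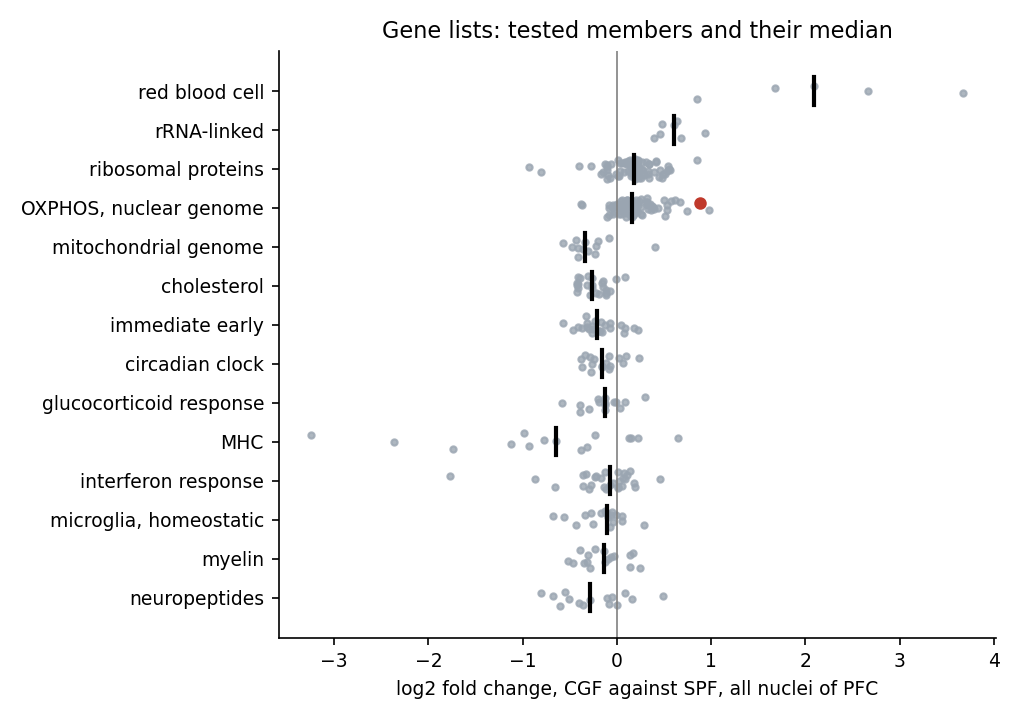
Log2 fold change of CGF against SPF in all nuclei of PFC for the tested members of 14 gene lists, with 1 point per gene, a black bar at the list's median and the called gene (Cox7c) in red. Most medians lie within 0.4 of 0, and those of the red blood cell, rRNA-linked and MHC lists lie farther out.

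Within their own gates, the lists of glial function held no call. Of all tested genes, 0.0834% were called in microglia, 0.118% in oligodendrocytes and 0.0267% in astrocytes. In microglia, 12 of 15 homeostatic genes were lower in CGF (median -0.12; 3 at an unadjusted p under 0.05). Runx1, a transcription factor of the lineage, had -0.84 ± 0.28 and Tgfbr1, the receptor for the cytokine that maintains microglia, -0.61 ± 0.20 (adjusted p = 0.540 for both), while P2ry12 and Tmem119 had -0.05 ± 0.24 and -0.02 ± 0.42. Of 12 tested genes of a phagocytic microglia list taken from the study, which was chosen on these libraries and so is not independent evidence, 10 were lower (1 at an unadjusted p under 0.05). In oligodendrocytes, 17 myelin genes had a median of -0.01 and none an unadjusted p under 0.05. In astrocytes, 13 of 16 functional genes were higher (median 0.22; 2 at an unadjusted p under 0.05). DESeq2 called 0 genes in each of these 4 lists and gates. Of all tested genes it called 1 of 3596 in microglia, 7 of 5065 in oligodendrocytes and 22 of 11253 in astrocytes. The shares at an unadjusted p under 0.05 by edgeR were 6.48% in microglia, 5.39% in oligodendrocytes and 10.4% in astrocytes.

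Among neuronal lists, 12 of 24 tested glutamate receptor genes were higher in excitatory neurons (median 0.01; 5 in all at an unadjusted p under 0.05), with Grid1, a delta receptor that organizes synapses, at 0.58 ± 0.13 (adjusted p = 0.175). edgeR called 0 and DESeq2 2 of them, beside 114 of 15173 genes that DESeq2 called in this gate. Neuropeptide genes in all nuclei were lower for 11 of 15 (median -0.29; 5 lower and 1 higher at an unadjusted p under 0.05). Npy was at 44.9, 68.6 and 51.4 CPM against 87.4, 74.4 and 88.8 CPM (-0.60 ± 0.15, adjusted p = 0.236), and Crh, the stress peptide, at 2.60, 2.78 and 2.21 CPM against 3.89, 4.98 and 4.43 CPM (-0.81 ± 0.19, adjusted p = 0.210). Cck was higher (0.49 ± 0.20, adjusted p = 0.416). edgeR called 0 and DESeq2 1 of the neuropeptides, beside its 202 of 17219 genes.

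Of markers of blood and of ribosomal RNA, edgeR called 0 in all nuclei, beside 0.226% of all tested genes. All 5 red blood cell genes had a positive log2 fold change (5 at an unadjusted p under 0.05, 0 called by edgeR or DESeq2), with a median log2 fold change of 2.09 and a summed level of 55.6 to 119 CPM in CGF and 12.0 to 35.6 CPM in SPF. Hbb-bs, a beta-globin gene, was at 38.9, 7.11 and 22.9 CPM against 3.16, 1.87 and 5.83 CPM (2.66 ± 0.58, adjusted p = 0.159), and the globin genes are near copies of each other. All 7 rRNA-linked transcripts had a positive log2 fold change (median 0.61; 4 at an unadjusted p under 0.05), and their summed level was 27666 to 40897 CPM in CGF and 19643 to 29249 CPM in SPF, so that the groups overlapped. edgeR called 0 and DESeq2 3 of them in all nuclei, beside 202 of 17219 genes that DESeq2 called. Without these, the mitochondrial and the nuclear long noncoding genes, 38 of the 39 calls in all nuclei remained. Markers of neighbouring tissue overlapped between groups: striatal genes summed to 1048 to 1140 CPM in CGF and 617 to 1160 CPM in SPF, olfactory genes to 210 to 443 CPM and 254 to 268 CPM, and thalamic genes to 32 to 34.3 CPM and 26.3 to 40.1 CPM. The part of blood, rRNA or dissection in the other results was not tested.

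No gate took a share of nuclei that passed the test, which 3 mice against 3 could not pass. Excitatory neurons were 30.5% ± 1.97 of nuclei in CGF and 36.9% ± 4.56 in SPF (SD, n = 3 each; exact two-sided permutation p = 0.1, adjusted p = 0.6 over 6 gates). Each CGF mouse was below each SPF mouse (28.9% to 32.7% against 32.8% to 41.8%). After every nucleus was thinned to 1500 UMIs, with 1284 to 2175 shallower nuclei left out per library, the shares were 12.9% ± 2.44 and 15.7% ± 3.33 (exact p = 0.4). Before thinning, nuclei outside every marker class (those with both neuron markers aside) were more frequent in each CGF mouse. They made up 41.5%, 41.2% and 49.7% in CGF mice 17, 18 and 19, and 36.3%, 35.4% and 38.7% in SPF mice 30, 31 and 32. Inhibitory neurons were 6.17% ± 2.00 against 5.67% ± 0.826 (exact p = 0.8), and astrocytes 9.61% ± 1.77 against 9.78% ± 1.09 (exact p = 1). Oligodendrocytes were 2.67% ± 0.675 against 3.31% ± 0.619 (exact p = 0.3), OPC 2.93% ± 0.547 against 2.74% ± 0.711 (exact p = 0.7), and microglia 1.45% ± 0.521 against 1.55% ± 0.303 (exact p = 0.8). After the same thinning the microglia share was 0.354% to 0.392% in CGF and 0.226% to 0.314% in SPF (exact p = 0.1, adjusted p = 0.6), so that its direction turned. These shares rest on 20, 19 and 21 nuclei in CGF and 10, 17 and 16 in SPF. The median of the gate before thinning was 723 to 904 UMIs, so most of its nuclei were left out.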

How the data were processed

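Nuclei from frozen PFC were run on the 10x Chromium 3' system (the protocol label and the study's methods name a later kit version than the series design text). The authors processed reads against mm10 with Cell Ranger 3.1.0 (per the file headers; the design text names an earlier version) and deposited raw UMI counts per gene and barcode. Doublet removal before deposit is not given in the sources used here, and no caller was run; leaving out the 5% of nuclei with most UMIs was an alternative. Gene positions came from GENCODE vM 21. Genes that share a symbol were kept apart by ID.

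Nuclei with at least 200 genes and at most 10% mitochondrial UMIs were kept and their counts summed per library, over all nuclei and by gate: Slc17a7 at 2 or more UMIs with Gad1 and Gad2 at 1 or less (excitatory), the converse (inhibitory), and for nuclei at 1 or less of both, at least 3 UMIs of astrocyte or OPC, 4 of oligodendrocyte or 2 of microglia markers and at least 2 times those of the next class. The mouse was the replicate, although the study's methods place the co-housed CGF mice in 1 isolator. The p-values measure spread between mice, not between separate colonizations, and the cages of the 3 CGF mice are not given. Sums were tested with edgeR 4.0.16 (filterByExpr, TMM, quasi-likelihood F test, R 4.3.3) and Benjamini-Hochberg adjustment over all genes tested, with a threshold of 0.05. CPM are counts scaled by TMM library size, SE is the log2 fold change over the root of F, and ± after a mean is the SD. Differences between regions were fitted in the 12 CGF and SPF libraries with the mouse as a block. Each mouse gave both regions. Same-mouse libraries of both regions deviated together in all nuclei (r from 0.169 to 0.240 over genes) and in excitatory neurons (0.164 to 0.216). In inhibitory neurons r was -0.007 to 0.156. There the PFC library of mouse 17 had -0.007 with its own Hip library and up to 0.0989 with that of another CGF mouse. Gate shares were compared by exact permutation tests with scipy 1.17.1.

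Named genes were, in all nuclei, up to 12 rises and 12 falls among called genes without overlap and with at least 20 CPM in the higher group (6 and 6 in neurons, 3 and 3 at 50 CPM in glia), plus called or lowest-p list members and sex-linked genes; unnamed models were counted. The comparison, members and 38 gene lists were chosen with earlier results of these data known. On simulated counts for all nuclei, 76% of 2-fold and 92% of 4-fold changes were recovered, with 14 false calls beside 168 true ones. In the gates 2-fold changes were recovered less often, down to 48% in oligodendrocytes, 55% in microglia and 56% in inhibitory neurons. Each simulation held 200 changed genes, where the data gave 39 calls in all nuclei. It redrew counts from the fitted dispersions and held no outlying library, so its recovery may exceed that in the data. Alternatives were DESeq2 1.42.0, RLE scaling, no filter, all 9 PFC libraries, thinning, stricter gates, other nuclei limits and each library left out. The study's comparison of GF with either group was not analysed here.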

Additional observations from a re-analysis of the deposited data

Results flagged for a closer look

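The CGF-SPF difference differed between PFC and Hip, by the interaction test with the mouse as a block, for 3 genes in all nuclei, each with an adjusted p of 0.00292. For Sim2 the PFC minus Hip value was 4.96 on the log2 scale. For AC135083.1 it was 4.84, from 5.42 in PFC (adjusted p = 0.00372) and 0.55 in Hip (0.351). For A830029E22Rik it was 5.78, from 1.23 in PFC (0.296) and -4.59 in Hip (0.0175), so that the called difference was the one in Hip. In excitatory neurons the value was 5.54 for AC135083.1 (0.00514), 1.19 for Emc10 (0.0215) and 6.34 for A830029E22Rik (0.00208), the last from 1.74 in PFC (0.190) and -4.67 in Hip (0.0202). It also passed there for 3 genes of blood vessel cells that were called in neither region alone. These were Flt1 at 2.25 (0.0206; 0.43 in PFC and -1.85 in Hip), Rgs5 at 2.56 (0.0233; 0.59 and -2.02) and Slco1a4 at 2.30 (0.0215; 0.27 and -1.98). Of the 6 calls in excitatory neurons, 2 remained with no replicate block, without SPF mouse 30 or without SPF mouse 32. How much vessel RNA the excitatory gate held in each region was not tested.

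The GF libraries of PFC, which stood outside the comparison, were all above the SPF libraries for 6 of the named rising genes. The mean was 0.219 CPM for Sim2 (0.145 to 0.295, against 110 to 217 CPM in CGF on the same scale), 197 CPM for Mid1, 27.3 CPM for Psat1, 88.5 CPM for Emc10, 43.0 CPM for Cox7c and 43.9 CPM for Mfap3. For the other rising genes named in all nuclei, Gmip, Galnt10 and Metap1d, the GF and SPF libraries overlapped. All were chosen for being lower in these SPF libraries, and the share of all tested genes with GF above SPF was not computed. For Sim2 the order rests on 17, 13 and 10 UMIs in GF against 1, 3 and 3 in SPF, where SPF did not exceed the floor of 3 counts. The GF libraries are deeper and have a lower mitochondrial share, and the part of either in these levels was not tested.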

How the results depend on the processing

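Counts of called genes moved with the method. DESeq2 called 202 genes in all nuclei (39 of them the 39 of edgeR), 114 in excitatory neurons, 22 in astrocytes and 1 in microglia. Without the filter on low counts edgeR called 96 in all nuclei, 120 in excitatory neurons, 146 in inhibitory neurons, 216 in astrocytes, and in the smaller gates 20 (oligodendrocytes), 17 (OPC) and 12 (microglia). With all 9 PFC libraries in the fit it called 77 in all nuclei, 39 in excitatory neurons and 29 in astrocytes. Stricter gates gave 18 in all gated nuclei, 7 in inhibitory neurons, 2 in oligodendrocytes and 0 in microglia, where 683 genes were left to test. Nuclei with at least 500 genes gave 5 in astrocytes, as did leaving out the 5% of nuclei with most UMIs, which gave 7 in OPC. Libraries thinned to equal totals gave 8 in microglia. The causes were not tested.

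Leaving out 1 library gave 9 to 158 calls in all nuclei, 10 to 165 in excitatory neurons, 6 to 23 in inhibitory neurons, 3 to 156 in astrocytes, and for the smaller gates 3 to 10 (oligodendrocytes), 1 to 4 (OPC) and 1 to 9 (microglia). In all nuclei, both kinds of neuron and astrocytes the highest count came without CGF mouse 18. In excitatory neurons the count also moved over 1.5 times without CGF mouse 17 (10) and SPF mouse 30 (12), in astrocytes without CGF mouse 19 (20), SPF mouse 31 (5) and SPF mouse 32 (9), in inhibitory neurons without CGF mouse 17 or 19 or SPF mouse 30 or 32 (6 each), and in microglia without CGF mouse 19 (9) and CGF mouse 17 or 18 (1 each). In oligodendrocytes it did so without SPF mouse 30 (3), 31 (10) or 32 (10), and in OPC without each library but SPF mouse 31 (1 or 2). Astrocytes had fewer calls than inhibitory neurons in the comparison as reported, and more without CGF mouse 18, CGF mouse 19 or SPF mouse 32, with DESeq2 (22 against 12), without the filter or with all 9 libraries. Of 64 gene results in these sums, 186 of 384 values with a library left out kept the call, 198 lost it and 0 reversed, and of 563 values under the other settings 508 kept it and 55 lost it.

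The replicate block stands for the mouse in the test between regions. With no replicate block, 2 genes in place of 3 passed in all nuclei and 2 in place of 6 in excitatory neurons, and 0 in inhibitory neurons in both. Leaving out 1 mouse gave 1 to 4, 2 to 12 and 0 to 0 calls. No paired analysis was possible between CGF and SPF within PFC, because their mice share no number.

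Differences in gate shares stayed lower in CGF for excitatory neurons (-8.53 to -4.01 percentage points) and oligodendrocytes (-1.03 to -0.287) with 1 library left out. They spanned 0 for inhibitory neurons (-0.595 to 1.35), astrocytes (-0.872 to 0.826), OPC (-0.162 to 0.549) and microglia (-0.406 to 0.0565). The sign also turned for astrocytes after thinning (0.526) and stricter gates (0.444), and for microglia (0.100 and 0.00479).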
